A study of Mus musculus with 8 samples.

Results

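Solute carriers are the large group of membrane proteins that move nutrients, ions, nucleosides, vitamins and metals across the cell surface and across the membranes of mitochondria, lysosomes and the Golgi. Each Slc family is defined by sequence, and its members are either exchangers, cotransporters driven by sodium, protons or potassium, or passive carriers. In T cells the amino acid carriers Slc7a5 with Slc3a2 and Slc1a5 rise on activation and supply leucine and glutamine for growth, and the mitochondrial Slc25 family links the matrix to the cytosol. The genes described here are the protein-coding genes with a symbol of Slc and a digit that were in the count tables of both experiments with a sum of at least 400 estimated counts over the 8 libraries. The glucose and lactate carriers Slc2a1, Slc2a3, Slc16a1 and Slc16a3 were left out. Of 16735 genes in both tables, 223 had such a symbol, 54 of these lay below the sum, and 165 genes of 43 families remained. The count sum chose the genes, and the nearest genes inside it were Slc5a6 at 407.7 and Slc39a8 at 454.0, with Slc6a8 at 375.0 and Slc7a10 at 272.0 just outside. The symbol is not a function: 3 of the 165 encode no carrier, namely Slc9a3r1 (the scaffold protein NHERF1), Slc4a1ap (kanadaptin) and Slc7a6os (named for lying opposite Slc7a6). Kinds of cargo go by family number, so the 22 genes of the inorganic ion families include Slc9a3r1 and Slc4a1ap, and the 24 of the amino acid and peptide families include Slc7a6os and the purine carrier gene Slc43a3.

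RNA came from T follicular helper (Tfh) cells, whose signals let germinal centre B cells mature, of K/BxN mice, which develop arthritis spontaneously. All groups carried a Th17 fate-mapping reporter, in which the fluorescent protein ZsGreen marks cells with a Th17 past, and all were sorted for CXCR5 and PD-1 among TCRβ+, CD4+ and CD25− cells. The sort for ZsGreen and the organ gave 4 groups: Peyer's patch (lymphoid follicles in the wall of the small intestine) ZsGreen+ and ZsGreen−, and spleen ZsGreen+ and ZsGreen−. The sources used here do not give the age and sex of the mice or the driver of the reporter. Each group had 2 libraries, 1 from experiment 1 and 1 from experiment 2, and nothing in the labels says whether these came from separate animals, so p-values measure the spread between these libraries, which may be technical in part.

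The libraries held 10009823 to 15323743 estimated counts. The 165 genes took 0.878% to 0.944% of the counts in experiment 1 and 0.57% to 0.758% in experiment 2. The experiments differed more than the groups for many of these genes: 63 had all 4 libraries of experiment 1 above all 4 of experiment 2 (38.2%, against 29.5% of the 14418 genes tested) and 28 had the reverse (17%, against 27.9%). The 63 genes had a median exon length of 5996 bases and the 28 genes 3090 bases, with 4606 bases for the 74 genes whose experiments overlapped. The gap was largest for the inorganic ion families, where 15 of 22 genes were higher in experiment 1, none of them Slc9a3r1 or Slc4a1ap. The zinc importer gene Slc39a1 had 33.3 to 46 CPM (counts scaled to a common library size with TMM factors) in experiment 1 and 1.20 to 2.66 in experiment 2. Groups were therefore compared within experiments, with a term for the experiment in the model.

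Per length, the highest of the 165 genes was Slc25a5, which encodes the ADP/ATP exchanger of the inner mitochondrial membrane, at a mean of 652 CPM per kb of exon over the 8 libraries. The scaffold gene Slc9a3r1 followed at 193, then Slc25a4 (a second ADP/ATP exchanger) at 71.5, Slc25a11 (the oxoglutarate carrier) at 67.3, Slc25a3 (the phosphate carrier) at 63.7 and Slc1a5 at 60.7 CPM per kb. The median was 4.38 and the lowest 0.486 CPM per kb. The level of Slc25a5 lay between 292 and 360 CPM in all groups of experiment 1 and between 1632.5 and 2068.5 CPM in all groups of experiment 2. Its order among the groups differed between the experiments, its neighbours in rank were far below it, and 33.8% of its 50-base transcript windows also occur in other genes. None of these 6 genes except Slc1a5 passed the test in any comparison.

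The sort comparison within a tissue asks which carriers differ between Tfh cells with and without a Th17 past. In spleen, ZsGreen+ cells had more mRNA for the mitochondrial ATP-Mg/phosphate carrier Slc25a24, the monocarboxylate transporter family member Slc16a6, the lysosomal histidine and peptide carrier Slc15a3, the purine nucleobase transporter Slc43a3, the hexose transporter Slc2a6, the iron carrier Slc11a2 and the copper importer Slc31a1. They had less for the urea channel Slc14a1, the nucleoside carriers Slc28a2 and Slc28a2b, the large neutral amino acid carrier Slc43a1 and Slc45a4, of the proton-associated sugar transporter family. Also lower were Slc26a11, a sulphate transporter, Slc25a23, Slc27a4, a fatty acid transport protein, Slc44a2, a choline transporter-like protein, and the endosomal sodium/proton exchanger Slc9a9. The 7 higher genes were 4.24% of the 165, against 4.53% of all genes tested, and the lower genes, 11 in all, were 6.67%, against 4.09% (edgeR's quasi-likelihood test, Benjamini-Hochberg adjusted p below 0.05). Among the 10767 tested genes that reach the same count sum as the Slc genes, 5.46% were higher and 5.02% lower. The lower share depended on the scaling, with 8 higher and 7 lower under the size factors of DESeq2, where Slc25a23, Slc27a4, Slc28a2 and Slc9a9 lost their calls (adjusted p = 0.0522, 0.0527, 0.0568 and 0.0548). The median log2 fold change was -0.0971 over the 165 genes and -0.0312 over all genes tested. In bulk RNA, fewer cells of a kind and less RNA per cell cannot be told apart.

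Calls in spleen varied with single libraries. Of the 18 genes, Slc15a3, Slc16a6, Slc25a24, Slc14a1 and Slc28a2b passed with any 1 library left out. Without a spleen ZsGreen+ library 12 (experiment 1) and 10 (experiment 2) of the 18 were lost, with an adjusted p of up to 0.548 for Slc25a23 and 0.322 for Slc44a2. Without a spleen ZsGreen− library 11 were lost in each experiment, with an adjusted p of up to 0.364 for Slc2a6 and 0.31 for Slc43a3. Leaving out a Peyer's patch library lost 2 to 6, with an adjusted p of up to 0.0854. Markers of the sort itself moved with this comparison: of 7 CD4 T and Tfh genes, Cxcr5, which encodes the sorted chemokine receptor, had 124 and 105 CPM in spleen ZsGreen+ cells and 351 and 390 CPM in spleen ZsGreen− cells (log2 fold change -1.69, adjusted p = 0.000127). Cd3e fell too, at -0.83 (adjusted p = 0.0426), and of 6 B cell genes tested Cd22 fell, at -4.15 (adjusted p = 1.81e-05). Cd22 was the only B cell gene to pass, and the median log2 fold change of the 6 was 2.27, in the other direction. The part of these markers in the carrier results was not tested.

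In Peyer's patch, Slc25a24 alone passed the test between ZsGreen+ and ZsGreen− cells: 1 of 165 genes rose (0.606%, against 0.284% of all genes tested) and none fell (0%, against 0.153%). With the same count sum, 0.362% of genes were higher and 0.204% lower. The B cell gene Cd22 moved in this comparison too, with 14.4 and 4.13 CPM in Peyer's patch ZsGreen+ cells and 51.6 and 13.4 CPM in Peyer's patch ZsGreen− cells (-1.77 ± 0.25, adjusted p = 0.0118). The other B cell genes tested did not pass, and the median log2 fold change of the 6 was 0.53. The part of Cd22 in the carrier result was not tested. At an unadjusted p under 0.05 there were 22 of the 165 (13.3%, against 8.13% of all genes), and DESeq2 called 1 higher and 3 lower genes, which were Slc16a5, Slc44a2 and Slc45a4. By the study's own criterion, which asks for a fold change of 1.5 or more and an unadjusted p under 0.05, there were 6 higher (3.64%, against 2.64%) and 6 lower (3.64%, against 1.95%). The monocarboxylate transporter family member Slc16a5 had the largest difference, -1.34 ± 0.30 (adjusted p = 0.163).

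**Figure D1:**
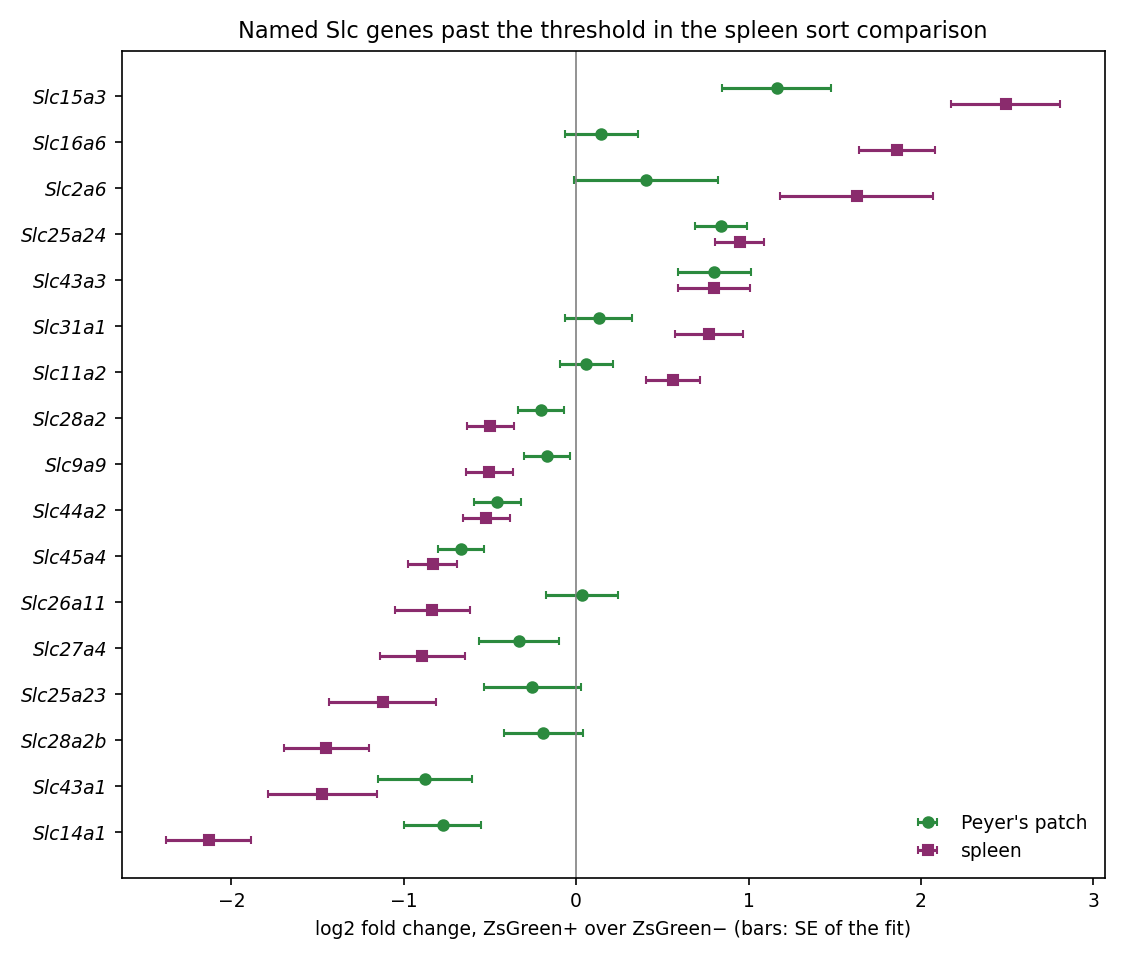
Log2 fold changes of ZsGreen+ over ZsGreen− cells (x axis) for the Slc genes named here that passed the test in spleen (rows), from the fit over all 8 libraries, with the SE of the fit as bars, in Peyer's patch (circles) and spleen (squares). Slc25a24 and Slc43a3 lie at about the same value in both tissues, at 0.84 and 0.95 for Slc25a24, while Slc16a6 lies at 0.15 in Peyer's patch and 1.86 in spleen.

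The tissue comparison within a sort asks which carriers differ between Tfh cells of the gut and of the spleen. Among ZsGreen+ cells, 22 of the 165 genes were higher in Peyer's patch (13.3%, against 5.51% of all genes tested) and 7 were lower (4.24%, against 7.17%). Of genes with the same count sum, 6.62% were higher and 8.7% lower. The higher genes included Slc45a4, Slc16a5, Slc12a8 (of the cation-chloride cotransporter family), Slc43a1, the proton-coupled folate transporter Slc46a1, Slc9a9, Slc26a11, Slc14a1 and Slc28a2b. The lower genes were Slc25a24, Slc15a3, Slc7a1 (the arginine and lysine carrier), Slc16a6, Slc1a5 (the glutamine carrier ASCT2), Slc25a25 and Slc25a20 (the carnitine-acylcarnitine carrier). The median log2 fold change was 0.0956 over the 165 genes and 0.015 over all genes tested. Among ZsGreen− cells, 8 genes were higher in Peyer's patch (4.85%, against 1.82%) and 6 were lower (3.64%, against 3.68%), with 2.21% and 4.39% of genes with the same count sum, while DESeq2 called 8 higher and 9 lower. The median was 0.1059 over the 165 genes and 0.0031 over all genes tested.

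The ZsGreen+ and ZsGreen− tissue comparisons share no library. All 8 genes that were higher in Peyer's patch among ZsGreen− cells were among the 22 of ZsGreen+ cells: Slc12a8, Slc16a5, Slc39a6, Slc43a1, Slc43a2, Slc45a4, Slc46a1 and Slc9a9. The shared genes were 36.4% of the 22, and over all genes tested 188 were shared, which is 71.8% of the 262 higher in ZsGreen− cells and 23.7% of the 794 higher in ZsGreen+ cells. Of the lower genes, Slc25a24 and Slc7a1 passed in both sorts, 5 in ZsGreen+ cells alone and 4 in ZsGreen− cells alone, so the shared genes were 33.3% of the 6 and 28.6% of the 7, against 68.9% and 35.3% over all genes tested. In the fit over all libraries no gene passed in opposite directions. Slc16a6 differed in sign between the sorts, lower in Peyer's patch among ZsGreen+ cells, while its positive value among ZsGreen− cells did not pass. Over the 4 comparisons 127 of the 165 genes passed in none, 19 in 1, 15 in 2, 3 in 3 (Slc43a1, Slc45a4 and Slc9a9) and 1, Slc25a24, in all 4. The shares, in the same order, were 77%, 11.5%, 9.09%, 1.82% and 0.606% of the 165, against 82.6%, 9.18%, 6.68%, 1.38% and 0.139% of all genes tested.

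**Figure D2:**
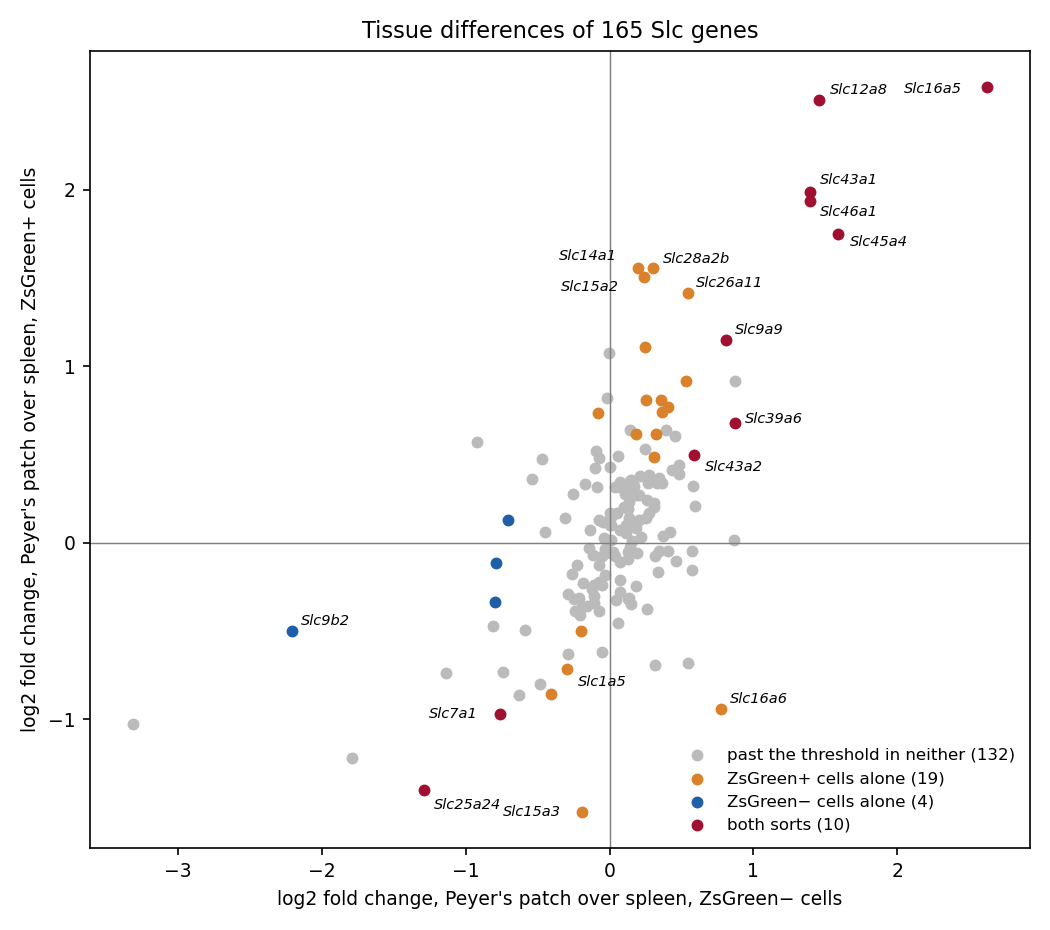
Log2 fold changes of Peyer's patch over spleen for the 165 Slc genes, in ZsGreen+ cells (y axis) and in ZsGreen− cells (x axis), with colours for the genes past the threshold in both sorts (10), ZsGreen+ cells alone (19), ZsGreen− cells alone (4) or neither (132). Slc16a5 lies at the top right, at 2.58 and 2.62, and Slc25a24 at the lower left, at -1.40 and -1.29.

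With any 1 library left out, 9 of the 22 higher genes of ZsGreen+ cells passed (Slc12a8, Slc14a1, Slc16a5, Slc26a11, Slc28a2b, Slc43a1, Slc45a4, Slc46a1 and Slc9a9), and so did Slc25a24 and Slc7a1 among the lower genes. Of the 29 calls in ZsGreen+ cells, 16 and 12 were lost without the Peyer's patch ZsGreen+ library of experiment 1 and 2 (adjusted p up to 0.323 for Slc5a3 and 0.253 for Slc27a4), and 13 without either spleen ZsGreen+ library (up to 0.459 for Slc25a23 and 0.263 for Slc4a8), and 1 to 3 without any other library (up to 0.0666). In ZsGreen− cells Slc16a5, Slc39a6, Slc45a4, Slc9a9 and Slc25a24 passed throughout. Of their 14 calls, 9 and 5 were lost without the Peyer's patch ZsGreen− library of experiment 1 and 2 (up to 0.301 for Slc4a7 and 0.186 for Slc12a8), and 7 and 6 without the spleen ZsGreen− library (up to 0.214 for Slc4a7 and 0.192 for Slc12a8), and Slc12a8 was lost without the Peyer's patch ZsGreen+ library of experiment 1 (0.0504).

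The looser counts of the other comparisons were as follows. By the study's criterion the spleen sort comparison had 10 higher genes (6.06%, against 6.4% of all genes tested) and 19 lower (11.5%, against 7.47%). Peyer's patch over spleen had 25 higher (15.2%, against 8.77%) and 11 lower (6.67%, against 9.15%) in ZsGreen+ cells, and 12 higher (7.27%, against 4.11%) and 11 lower (6.67%, against 7.37%) in ZsGreen− cells. At an unadjusted p under 0.05 in either direction there were 46 Slc genes in the spleen sort comparison (27.9%, against 21.9%), 47 in the tissue comparison of ZsGreen+ cells (28.5%, against 26.4%) and 34 in that of ZsGreen− cells (20.6%, against 17.7%).

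Markers of other cells also differed between the tissues. The summed level of 7 B cell genes was 8.40 to 72.2 CPM in Peyer's patch ZsGreen+ cells, 18.1 to 84.6 in Peyer's patch ZsGreen− cells, 4.89 to 5.38 in spleen ZsGreen+ cells and 18.2 to 37.4 in spleen ZsGreen− cells. Pax5 and Cd22 made up most of it in 7 of the 8 libraries. Of the 6 B cell genes tested, Pax5 (4.62, adjusted p = 5.55e-05) and Cd22 (2.57, adjusted p = 0.000302) were higher in Peyer's patch among ZsGreen+ cells. Among ZsGreen− cells Pax5 was higher there (2.78, adjusted p = 0.00194). The other B cell genes did not pass. The 7 myeloid genes summed to 31.1 to 37.2 and 32.1 to 33.1 CPM in Peyer's patch ZsGreen+ and ZsGreen− cells and to 9.26 to 14.6 and 17.6 to 23.4 CPM in spleen ZsGreen+ and ZsGreen− cells. Of these, Lyz2 and Cd68 were higher and Itgam was lower in Peyer's patch among ZsGreen+ cells. The 3 CD8 T and NK cell genes, mostly Klrb1c, summed to 46.8 to 72.5 CPM in Peyer's patch and 18.4 to 32 in spleen. Of the 2 tested, Klrb1c was higher in Peyer's patch in both sorts and the other did not pass. Klrb1c had 1.40 among ZsGreen+ cells (adjusted p = 0.000168) and 1.69 among ZsGreen− cells (adjusted p = 0.00012). The 6 epithelial genes summed to 9.80 to 19.4 CPM in Peyer's patch and 4.49 to 11.7 in spleen, where Krt8 and Krt19 were at 0, and none of the 4 tested passed. The part of these markers in the tissue results was not tested. Tfh genes moved as well. Of the 7 CD4 T and Tfh genes, 3 were higher in Peyer's patch among ZsGreen+ cells and none was lower. These were Cxcr5 (2.47, adjusted p = 1.07e-05), Bcl6 (1.49, adjusted p = 0.0111) and Icos (0.82, adjusted p = 0.0266). Among ZsGreen− cells Cxcr5 alone passed (1.08, adjusted p = 0.00229).

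The mitochondrial carriers, 36 genes, held the gene with the most calls, Slc25a24. With Slc25a23 and Slc25a25 it encodes the calcium-regulated ATP-Mg/phosphate carriers, which set the adenine nucleotide content of the matrix. The 300 bases from 250 before to 50 after the annotated start of the 3 paralogs are shown because Slc25a24 and Slc25a23 had spleen sort differences of opposite sign, although that of Slc25a23 lay at the threshold. RefSeq lists 2 starts for Slc25a23 and 3 for Slc25a25, and the most upstream one is printed. They are from RefSeq on GRCm38.p6, written 5′ to 3′ on the gene's strand with the GC box GGGCGG, or its reverse complement, in capitals.
Slc25a24, chr3:109122899-109123198, strand +: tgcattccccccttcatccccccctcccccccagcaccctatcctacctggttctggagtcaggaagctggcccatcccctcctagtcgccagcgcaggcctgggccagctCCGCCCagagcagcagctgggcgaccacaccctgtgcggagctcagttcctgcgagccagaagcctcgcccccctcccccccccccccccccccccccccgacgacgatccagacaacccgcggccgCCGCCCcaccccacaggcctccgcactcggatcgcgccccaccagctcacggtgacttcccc
Slc25a23, chr17:57059814-57060113, strand -: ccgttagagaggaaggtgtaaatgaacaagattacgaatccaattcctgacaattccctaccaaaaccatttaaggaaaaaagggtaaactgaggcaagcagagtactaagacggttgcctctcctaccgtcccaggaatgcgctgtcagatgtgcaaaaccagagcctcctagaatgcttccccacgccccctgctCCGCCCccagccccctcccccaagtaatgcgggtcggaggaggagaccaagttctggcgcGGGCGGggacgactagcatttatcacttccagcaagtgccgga
Slc25a25, chr2:32451421-32451720, strand -: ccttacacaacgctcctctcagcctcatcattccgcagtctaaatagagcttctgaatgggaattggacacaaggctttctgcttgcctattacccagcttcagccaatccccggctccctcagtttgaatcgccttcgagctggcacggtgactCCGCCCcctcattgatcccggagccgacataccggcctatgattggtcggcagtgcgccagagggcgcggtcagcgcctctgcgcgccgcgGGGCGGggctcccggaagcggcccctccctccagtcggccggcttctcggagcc
Each of the 3 windows printed held 2 GC boxes, the element that Sp1 family factors are known to bind. Of the windows not printed, that of Slc25a23 held 2, and those of Slc25a25 held none and 1. None of the printed windows held the nuclear receptor element AGGTCA, the AP-1 site TGANTCA, the E-box CACGTG or the amino acid response element TGATGNAA on either strand. Of the 165 Slc genes, 126 had a window. The GC box was in 73.5% of their 166 windows and in 35.7% of all 32851 annotated windows of this length, and the E-box in 15.7% of Slc windows and 7.15% of all windows. For AGGTCA the shares were 13.3% of Slc windows and 16.3% of all windows, for TGANTCA 5.42% of Slc windows and 7.81% of all, and for TGATGNAA 3.01% of Slc windows and 3.97% of all. The Slc windows belong to genes past the count sum, while the 32851 windows took in genes at any level. Motif shares among genes with the same count sum were not computed, so the differences are not shown to belong to Slc genes. These are counts of letters, not of bound sites.

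Slc25a24 (mm39, chromosome 3, 109030465 to 109075773, plus strand) had 37.8 and 32 CPM in Peyer's patch ZsGreen+ cells of experiments 1 and 2 and 20.5 and 18.5 CPM in Peyer's patch ZsGreen− cells. In spleen it had 101 and 83.7 CPM in ZsGreen+ cells and 56.6 and 39.2 CPM in ZsGreen− cells. The 4 groups did not overlap, and spleen ZsGreen+ cells stood highest in both experiments. ZsGreen+ cells were higher by 0.84 ± 0.15 (log2 fold change ± SE, adjusted p = 0.0344) in Peyer's patch and by 0.95 ± 0.14 (adjusted p = 0.00214) in spleen. Peyer's patch was lower, with -1.40 ± 0.14 (adjusted p = 8.95e-05) in ZsGreen+ cells and -1.29 ± 0.15 (adjusted p = 0.000426) in ZsGreen− cells. The Peyer's patch sort call was lost without any of the 4 Peyer's patch libraries (adjusted p = 0.127 and 0.182 without ZsGreen+ of experiment 1 and 2, 0.497 and 0.158 without ZsGreen−) and without spleen ZsGreen+ of experiment 1 (0.057), at values of 0.735 to 0.928. The other 3 calls of Slc25a24 held with any library left out.

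Its paralog Slc25a23 went the other way in spleen, with 6.12 and 1.97 CPM in ZsGreen+ cells and 16.2 and 3.07 CPM in ZsGreen− cells, a difference of -1.12 ± 0.31 on the log2 scale (adjusted p = 0.0457). This call was lost with the size factors of DESeq2 (adjusted p = 0.0522), DESeq2 (0.0555), limma (0.0797) and 6 of the 8 fits without 1 library, with values of -1.41 to -0.62. In Peyer's patch it had 15.4 and 3.30 CPM in ZsGreen+ cells and 20.5 and 3.21 CPM in ZsGreen− cells, so the experiments differed in sign there (-0.25 ± 0.28, adjusted p = 0.894). Slc25a23 was higher in Peyer's patch than in spleen among ZsGreen+ cells, by 1.11 ± 0.30 (adjusted p = 0.0316, or 0.0607 with limma). Slc25a25, the third paralog, had 20.7 and 10.5 CPM in Peyer's patch ZsGreen+ cells and 33.2 and 22 CPM in spleen ZsGreen+ cells, a difference of -0.86 ± 0.20 (adjusted p = 0.0142). Its sort difference was 0.05 ± 0.20 in spleen (adjusted p = 0.926). Slc25a20, which brings acylcarnitines into the matrix for fatty acid oxidation, had 23 and 58.1 CPM in Peyer's patch ZsGreen+ cells and 34.6 and 77.7 CPM in spleen ZsGreen+ cells (-0.50 ± 0.15, adjusted p = 0.0458). The other 32 mitochondrial carriers passed in no comparison, which held for 82.6% of all genes tested. The median log2 fold change of the 36 lay between -0.0503 and 0.0402 in the 4 comparisons.

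**Figure D3:**
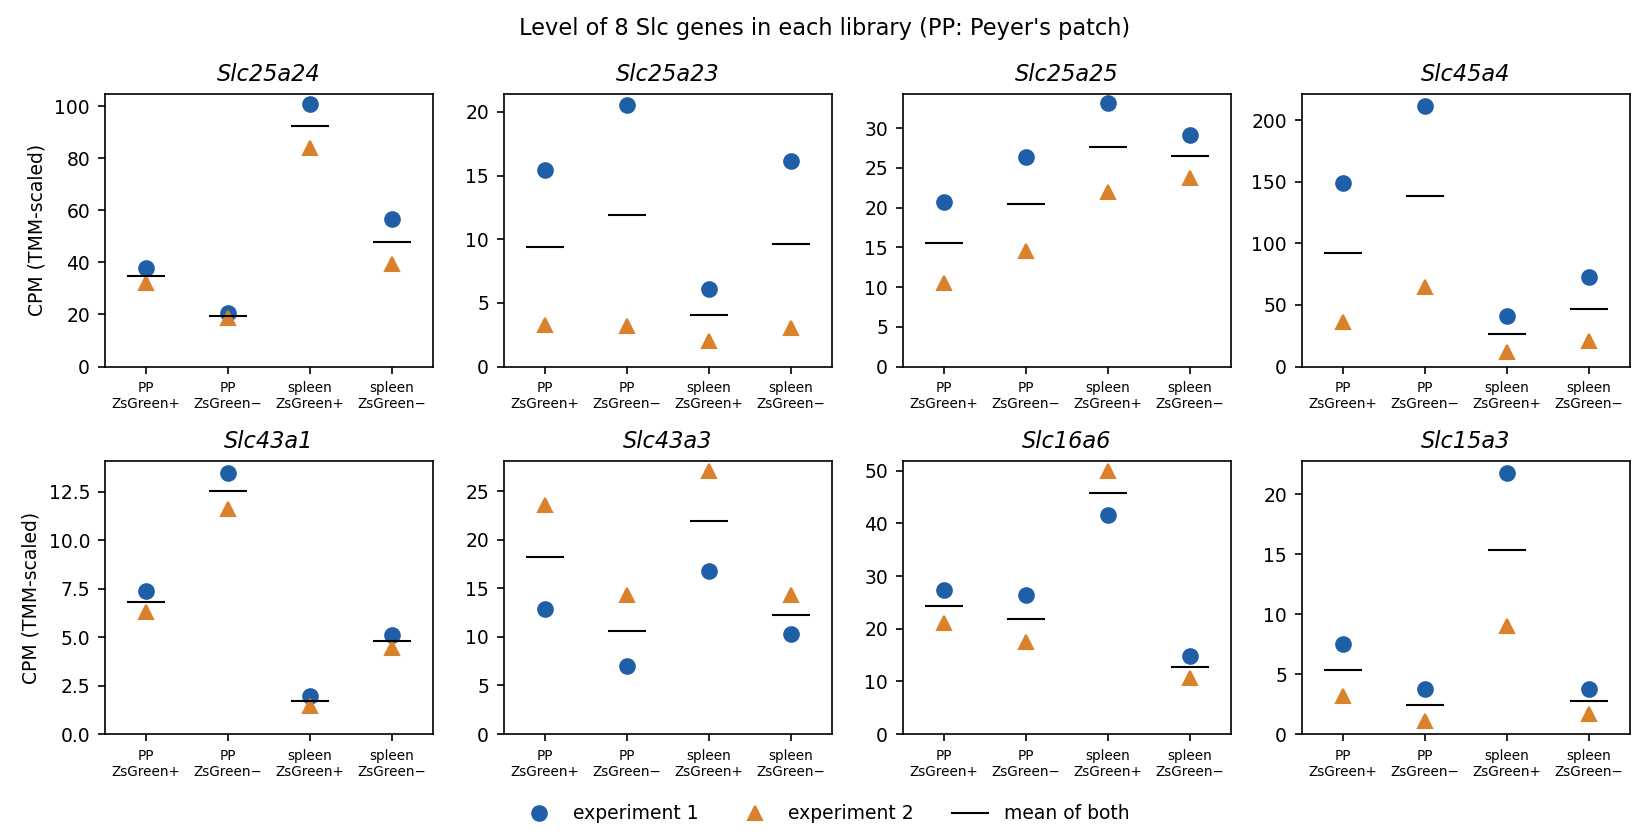
Levels of 8 Slc genes in TMM-scaled CPM (y axis, linear, from 0) in each library of the 4 groups (x axis), with circles for experiment 1, triangles for experiment 2 and a bar at their mean. Slc25a24 and Slc16a6 are highest in spleen ZsGreen+ cells, at 101 and 83.7 CPM and at 41.7 and 49.9 CPM, and Slc45a4 and Slc43a1 are lowest there.

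The amino acid and peptide families, 24 genes, had 2 higher genes (Slc15a3 and the purine carrier gene Slc43a3) and 1 lower in spleen ZsGreen+ cells. Of all genes tested, 4.53% were higher and 4.09% lower there. In Peyer's patch over spleen among ZsGreen+ cells 3 were higher and 3 lower, beside 5.51% and 7.17% of all genes tested. Slc43a1, which encodes the large neutral amino acid carrier LAT3, had 7.36 and 6.30 CPM in Peyer's patch ZsGreen+ cells and 13.5 and 11.6 CPM in Peyer's patch ZsGreen− cells, and 1.97 and 1.46 CPM in spleen ZsGreen+ cells and 5.13 and 4.45 CPM in spleen ZsGreen− cells. Its 4 groups did not overlap, and the ZsGreen+ cells were the lower ones in each tissue. The spleen sort difference was -1.47 ± 0.32 (adjusted p = 0.0146), that of Peyer's patch -0.88 ± 0.27 (adjusted p = 0.353), and Peyer's patch exceeded spleen by 1.99 ± 0.31 in ZsGreen+ cells (adjusted p = 0.00133) and 1.39 ± 0.29 in ZsGreen− cells (adjusted p = 0.0147). Slc43a3 lies 73.0 kb from Slc43a1 on chromosome 2, belongs to the same family by sequence and carries purine nucleobases. It ran in the opposite direction in spleen, with 16.8 and 27.1 CPM in ZsGreen+ cells and 10.3 and 14.3 CPM in ZsGreen− cells (0.80 ± 0.21, adjusted p = 0.0356). In Peyer's patch its value was the same, 0.80 ± 0.21, but did not pass (adjusted p = 0.21). The third family member, Slc43a2 (LAT4), was higher in Peyer's patch in both sorts, by 0.50 ± 0.12 among ZsGreen+ cells (adjusted p = 0.0188) and 0.59 ± 0.13 among ZsGreen− cells (adjusted p = 0.0181).

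Slc15a3, the lysosomal histidine and peptide carrier, had the largest rise of the 165 genes in the spleen sort comparison. It had 21.7 and 9.0 CPM in spleen ZsGreen+ cells and 3.80 and 1.69 CPM in spleen ZsGreen− cells (2.49 ± 0.32, adjusted p = 0.000727), and 7.53 and 3.15 CPM in Peyer's patch ZsGreen+ cells and 3.76 and 1.11 CPM in Peyer's patch ZsGreen− cells (1.16 ± 0.32, adjusted p = 0.231). ZsGreen+ cells were above ZsGreen− cells of the same tissue and experiment in each of the 4 pairs. Its tissue difference was -1.52 ± 0.28 in ZsGreen+ cells (adjusted p = 0.00419) and -0.19 ± 0.34 in ZsGreen− cells (adjusted p = 0.88). The surface peptide carrier of the same family, Slc15a2 (PEPT2), showed the reverse tissue order in ZsGreen+ cells, with 18.6 and 3.23 CPM in Peyer's patch and 6.23 and 1.20 CPM in spleen (1.51 ± 0.29, adjusted p = 0.00468). Exons of Slc15a3 overlap those of Tmem132a on the other strand by 28.1% of their length, and Slc15a3 had a mean count of 106.3, against 8.2 for Tmem132a.

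Of the amino acid carriers known from T cell activation, Slc7a1 and Slc1a5 passed in the tissue comparison and none passed between the sorts in edgeR. DESeq2 called Slc1a5 higher in spleen ZsGreen+ cells (0.38, adjusted p = 0.0204, against 0.35 and 0.151 in edgeR). Slc7a1, the surface arginine and lysine carrier CAT1, was lower in Peyer's patch in both sorts, with 68.5 and 23 CPM against 141 and 42.5 CPM in spleen among ZsGreen+ cells (-0.97 ± 0.14, adjusted p = 0.000984) and 57.4 and 23.9 CPM against 107 and 36.3 CPM in spleen among ZsGreen− cells (-0.76 ± 0.15, adjusted p = 0.0103). Slc1a5 was lower in Peyer's patch among ZsGreen+ cells, at 183 and 224 CPM against 310 and 355 CPM in spleen (-0.71 ± 0.14, adjusted p = 0.00483, or 0.0512 and 0.0662 without the experiment 1 library of Peyer's patch and of spleen ZsGreen+ cells). In ZsGreen− cells its difference was -0.29 ± 0.14 (adjusted p = 0.293). Slc3a2, the heavy chain CD98 that partners several amino acid exchangers, had 77.5 and 169 CPM in Peyer's patch ZsGreen+ cells and 105 and 377 CPM in spleen ZsGreen+ cells, which did not pass in edgeR (-0.80 ± 0.24, adjusted p = 0.0686). It passed in DESeq2 (-0.84, adjusted p = 0.0125) and without any 1 of the 4 ZsGreen− libraries (adjusted p = 0.0103 to 0.0456). Its light chain Slc7a5 (LAT1) had 25 and 7.43 CPM in Peyer's patch ZsGreen+ cells, 31.8 and 8.42 in Peyer's patch ZsGreen− cells, 28.6 and 10.6 in spleen ZsGreen+ cells and 31.2 and 10.4 in spleen ZsGreen− cells, with log2 fold changes of -0.34 to -0.05 and no call. The neutral amino acid carrier Slc38a1, at 217 to 311 CPM in all libraries, stayed within -0.04 to 0.07. None of the 6 Slc38 genes passed in any comparison, and neither did 82.6% of all genes tested. Slc38a2 had 56.2 to 108 CPM in Peyer's patch and 119 to 203 CPM in spleen (-0.74 ± 0.49 in ZsGreen+ and -1.14 ± 0.49 in ZsGreen− cells, adjusted p = 0.43 and 0.355).

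Among the carriers of monocarboxylates, sulphate and dicarboxylates, 8 genes, Slc16a6 and Slc16a5 moved apart. Slc16a6 (mm39, chromosome 11, 109341681 to 109364424, minus strand) had 41.7 and 49.9 CPM in spleen ZsGreen+ cells and 14.8 and 10.6 CPM in spleen ZsGreen− cells (1.86 ± 0.22, adjusted p = 0.000471). In Peyer's patch it had 27.4 and 21.1 CPM in ZsGreen+ cells and 26.5 and 17.4 CPM in ZsGreen− cells (0.15 ± 0.21, adjusted p = 0.921). Peyer's patch was lower than spleen in ZsGreen+ cells (-0.94 ± 0.21, adjusted p = 0.0111), while in ZsGreen− cells the difference was 0.78 ± 0.22 (adjusted p = 0.0679). Exons of Slc16a6 overlap those of Amz2 on the other strand by 21.5% of their length, and part of the reads may belong to that gene in a non-directional library. Slc16a6 had a mean count of 390.3, against 656.5 for Amz2, whose spleen sort difference was -0.04 (adjusted p = 0.915). Amz2 was higher in Peyer's patch among ZsGreen+ cells (0.50, adjusted p = 0.0422), where Slc16a6 was lower.

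Slc16a5 (mm39, chromosome 11, 115353300 to 115365224, plus strand) had the largest tissue difference among the Slc genes that passed, in the fit over all libraries. It had 10.5 and 22.1 CPM in Peyer's patch ZsGreen+ cells against 2.93 and 1.80 CPM in spleen ZsGreen+ cells (2.58 ± 0.36, adjusted p = 0.00125). That value was 3.52 without the spleen ZsGreen+ library of experiment 1 and 1.91 without that of experiment 2, where Slc12a8 was at 2.63. Among ZsGreen− cells it had 29.1 and 51.7 CPM in Peyer's patch and 4.81 and 8.28 CPM in spleen (2.62 ± 0.33, adjusted p = 0.00158). The sort differences, -1.34 ± 0.30 in Peyer's patch and -1.29 ± 0.38 in spleen, did not pass (adjusted p = 0.163 and 0.0665), although ZsGreen+ cells were lower in each of the 4 pairs. DESeq2 called Slc16a5 in both tissues (adjusted p = 0.0332 in Peyer's patch and 0.0244 in spleen), limma in spleen (0.0466), and 2 of the 8 fits without 1 library in each tissue, with spleen values of -2.27 to -0.66. Slc26a11, which carries sulphate, had 138 and 64.7 CPM in Peyer's patch ZsGreen+ cells and 48.5 and 26.1 CPM in spleen ZsGreen+ cells (1.41 ± 0.21, adjusted p = 0.00241), and 66.2 and 61.5 CPM in spleen ZsGreen− cells, above the ZsGreen+ cells there (-0.83 ± 0.22, adjusted p = 0.0457).

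The sugar and polyol carriers, 11 genes, were led by Slc45a4 (mm39, chromosome 15, 73449273 to 73517611, minus strand). It had 149 and 36 CPM in Peyer's patch ZsGreen+ cells and 212 and 64.8 CPM in Peyer's patch ZsGreen− cells, and 41.2 and 11.7 CPM in spleen ZsGreen+ cells and 72.8 and 21 CPM in spleen ZsGreen− cells. Within each experiment both Peyer's patch libraries lay above both spleen libraries, and ZsGreen+ cells lay below ZsGreen− cells. Peyer's patch exceeded spleen by 1.75 ± 0.14 in ZsGreen+ cells (adjusted p = 2.27e-05) and by 1.59 ± 0.14 in ZsGreen− cells (adjusted p = 7.09e-05). The sort difference was -0.83 ± 0.14 in spleen (adjusted p = 0.00437, or 0.0571 without the spleen ZsGreen+ library of experiment 1) and -0.67 ± 0.13 in Peyer's patch (adjusted p = 0.065). The hexose transporter gene Slc2a6 (GLUT6) had 9.64 and 10.6 CPM in spleen ZsGreen+ cells and 2.35 and 4.60 CPM in spleen ZsGreen− cells (1.63 ± 0.44, adjusted p = 0.0441). Its value was 0.91 without the spleen ZsGreen− library of experiment 1 and 2.36 without that of experiment 2, and 4 of the 8 fits without 1 library lost the call. The myo-inositol carrier Slc5a3 and the sugar channel Slc50a1 were higher in Peyer's patch among ZsGreen+ cells, by 0.81 ± 0.20 (adjusted p = 0.017) and 0.49 ± 0.13 (adjusted p = 0.0266).

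Of the 13 carriers of nucleosides, vitamins, urea and organic cations, 5 were higher in Peyer's patch among ZsGreen+ cells and none was lower, beside 5.51% higher and 7.17% lower of all genes tested. Slc14a1, a urea channel, had 3.57 and 3.86 CPM in spleen ZsGreen+ cells and 17 and 15.5 CPM in spleen ZsGreen− cells, the largest fall of the 165 genes there (-2.13 ± 0.25, adjusted p = 0.000383). In Peyer's patch it had 12.6 and 9.15 CPM in ZsGreen+ cells and 18.7 and 18.5 CPM in ZsGreen− cells (-0.77 ± 0.22, adjusted p = 0.287). The spleen ZsGreen+ libraries stood apart from the other 6. Peyer's patch exceeded spleen by 1.56 ± 0.24 in ZsGreen+ cells (adjusted p = 0.0014) and by 0.20 ± 0.22 in ZsGreen− cells, which did not pass (adjusted p = 0.737). Slc28a2b, a sodium-coupled nucleoside carrier gene, had the same shape, with 5.43 and 3.86 CPM in spleen ZsGreen+ cells and 14 and 11.5 CPM in spleen ZsGreen− cells (-1.45 ± 0.25, adjusted p = 0.00417) and 13.6 to 16.5 CPM in the 4 Peyer's patch libraries. Its neighbour Slc28a2, which encodes the purine nucleoside carrier CNT2, lies 23.8 kb away on chromosome 2 and had 61.0 and 46.6 CPM in spleen ZsGreen+ cells and 85.8 and 66.1 CPM in spleen ZsGreen− cells (-0.50 ± 0.14, adjusted p = 0.0448). The pair share 35.4% of the 50-base windows of Slc28a2 and 30.3% of those of Slc28a2b, so their separate values are uncertain.

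One of the folate carriers passed in both sorts. This was Slc46a1, the proton-coupled folate transporter, which had 5.96 and 12.8 CPM in Peyer's patch ZsGreen+ cells and 1.60 and 3.26 CPM in spleen ZsGreen+ cells (1.94 ± 0.29, adjusted p = 0.00108). Among ZsGreen− cells it had 9.69 and 16.2 CPM in Peyer's patch and 3.32 and 6.90 CPM in spleen (1.39 ± 0.28, adjusted p = 0.0121). The reduced folate carrier Slc19a1 was between 18.5 and 40.1 CPM, with 0.32 ± 0.19 in ZsGreen+ cells (adjusted p = 0.321) and 0.58 ± 0.20 in ZsGreen− cells (adjusted p = 0.131). The equilibrative nucleoside carrier Slc29a1, at 101 to 214 CPM, stayed between -0.19 and 0.17 in the 4 comparisons and did not pass. Slc46a3, a lysosomal relative of Slc46a1, was higher in Peyer's patch among ZsGreen+ cells (0.77 ± 0.21, adjusted p = 0.0312), and Slc22a15, of the organic cation family, was lower in Peyer's patch among ZsGreen− cells (-0.79 ± 0.14, adjusted p = 0.00632).

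Among the 22 genes of the inorganic ion and proton families, 20 without Slc9a3r1 and Slc4a1ap, 5 were higher in Peyer's patch in ZsGreen+ cells and none lower, beside the same 5.51% and 7.17% of all genes. Slc9a9, the sodium/proton exchanger of recycling endosomes, had 190 and 171 CPM in Peyer's patch ZsGreen+ cells against 77.8 and 85.5 CPM in spleen ZsGreen+ cells (1.15 ± 0.14, adjusted p = 0.000258), and 196 and 210 CPM in Peyer's patch ZsGreen− cells against 108 and 124 CPM in spleen ZsGreen− cells (0.81 ± 0.14, adjusted p = 0.00446). Every Peyer's patch library lay above every spleen library. Slc12a8 had 6.41 and 7.5 CPM in Peyer's patch ZsGreen+ cells and 1.01 and 1.46 CPM in spleen ZsGreen+ cells (2.51 ± 0.37, adjusted p = 0.001), with 1.46 ± 0.36 among ZsGreen− cells (adjusted p = 0.0349).

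Slc9b2, a sodium/proton exchanger, had 1.58 and 4.76 CPM in Peyer's patch ZsGreen− cells and 10.6 and 15.8 CPM in spleen ZsGreen− cells (-2.21 ± 0.36, adjusted p = 0.00372). Among ZsGreen+ cells it had 3.20 and 7.35 CPM in Peyer's patch and 6.12 and 7.63 CPM in spleen (-0.50 ± 0.34, adjusted p = 0.383). The sodium-bicarbonate cotransporter Slc4a7 was also lower in Peyer's patch among ZsGreen− cells, at 39.4 and 23.4 CPM against 74.8 and 32 CPM in spleen (-0.71 ± 0.16, adjusted p = 0.0236). The magnesium transporter Slc41a1 and the bicarbonate carrier Slc4a8 were higher in Peyer's patch among ZsGreen+ cells, by 0.74 ± 0.18 (adjusted p = 0.0163) and 0.62 ± 0.17 (adjusted p = 0.0361). The anion exchanger Slc4a2, the phosphate carrier Slc20a1 and the sodium-potassium-chloride cotransporter Slc12a2 passed in no comparison, which held for 82.6% of all genes tested. With a stricter filter on low counts, Slc12a2 was called higher in Peyer's patch among ZsGreen+ cells.

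Of the 22 carriers of zinc, iron, copper and heme, 2 rose in spleen ZsGreen+ cells, where 4.53% of all genes tested rose. The endosomal iron carrier Slc11a2 (DMT1) had 90.4 and 49.9 CPM in spleen ZsGreen+ cells and 54.2 and 39.1 CPM in spleen ZsGreen− cells (0.56 ± 0.15, adjusted p = 0.045). The copper importer Slc31a1 had 16 and 34.5 CPM in spleen ZsGreen+ cells and 9.63 and 19.6 CPM in spleen ZsGreen− cells (0.77 ± 0.20, adjusted p = 0.0331). Both calls were lost in some fits without 1 library, at values of 0.30 to 0.78 for Slc11a2 and 0.66 to 0.88 for Slc31a1. The zinc importer Slc39a6 was higher in Peyer's patch in both sorts, with 69.8 and 58.9 CPM against 46.3 and 34.4 CPM in spleen among ZsGreen+ cells (0.68 ± 0.13, adjusted p = 0.00492) and 89.8 and 78.0 CPM against 50.6 and 41.4 CPM in spleen among ZsGreen− cells (0.87 ± 0.13, adjusted p = 0.00236). Slc39a13, an intracellular zinc transporter, was higher in Peyer's patch among ZsGreen+ cells (0.92 ± 0.22, adjusted p = 0.0159). The zinc exporter Slc30a1 and the other 5 Slc30 genes passed in no comparison, which held for 82.6% of all genes tested.

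The 6 lipid-related carriers gave 2 lower calls in spleen, where 4.09% of all genes tested were lower. The choline transporter-like gene Slc44a2 had 218 and 131 CPM in spleen ZsGreen+ cells and 298 and 197 CPM in spleen ZsGreen− cells (-0.52 ± 0.14, adjusted p = 0.0354), and the difference in Peyer's patch was -0.46 ± 0.14 (adjusted p = 0.316). The fatty acid transport protein gene Slc27a4 had 11.8 and 3.77 CPM in spleen ZsGreen+ cells and 24.5 and 5.83 CPM in spleen ZsGreen− cells (-0.89 ± 0.25, adjusted p = 0.045). The call of Slc27a4 was lost with the size factors of DESeq2 (adjusted p = 0.0527), DESeq2 (0.053), limma (0.0637) and 5 of the 8 fits without 1 library. The 21 genes of the families of nucleotide sugar and acetyl-CoA carriers of the endoplasmic reticulum and Golgi gave 1 call in the 4 comparisons. This was Slc35g1, placed here by family number alone, which was lower in Peyer's patch among ZsGreen− cells (-0.79 ± 0.18, adjusted p = 0.0255). Of the 165 Slc genes 77%, and of all genes tested 82.6%, passed in none of the 4. Their summed level varied between 670.9 and 763.3 CPM over the 8 libraries, while that of the 20 inorganic ion carriers, without Slc9a3r1 and Slc4a1ap, varied between 327.7 and 1219.0 CPM.

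**Figure D4:**
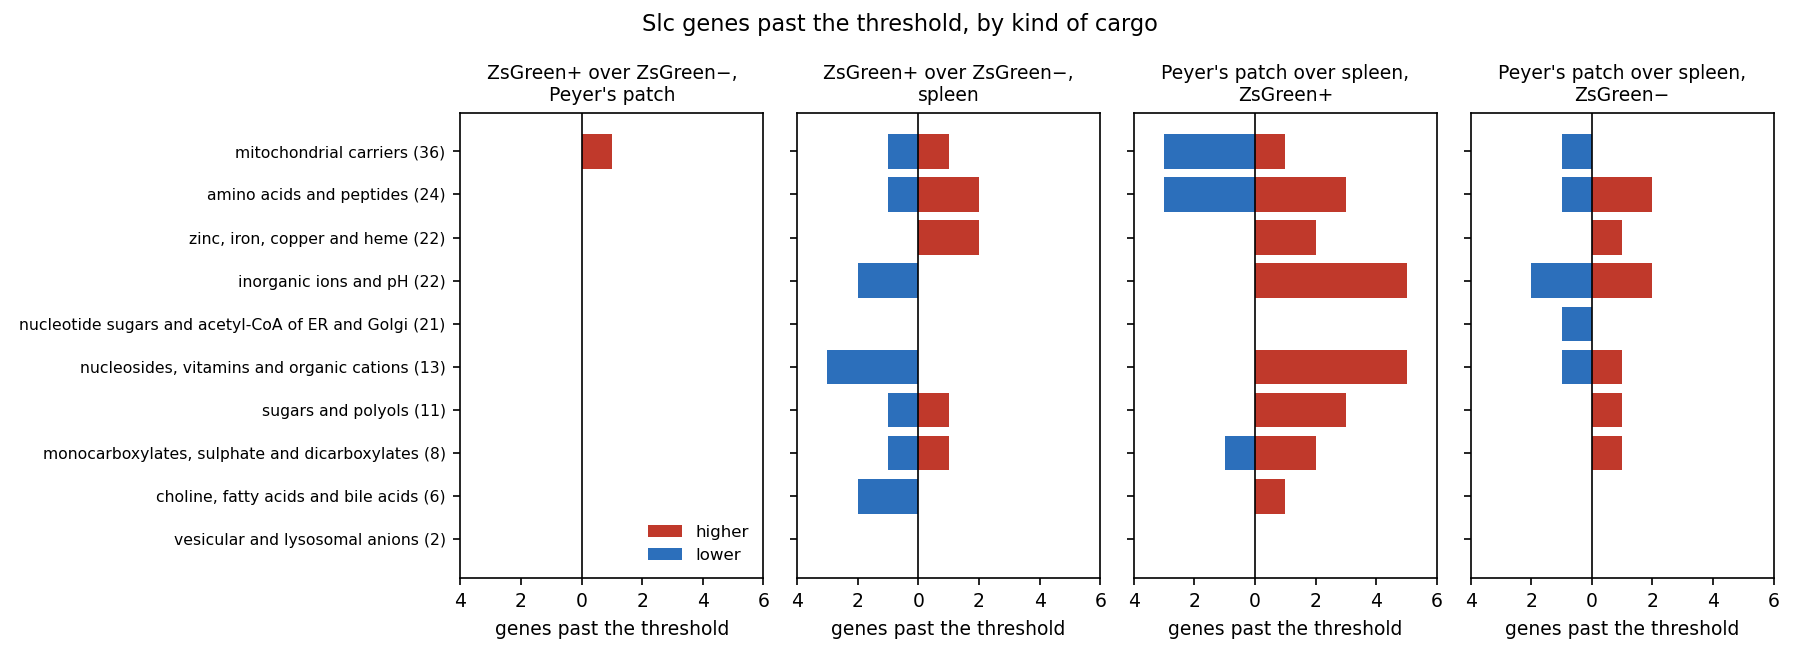
Number of Slc genes past the threshold (x axis, higher to the right and lower to the left of 0) by kind of cargo (rows, with the number of genes in each), in the 4 comparisons. Kinds go by family number, so inorganic ions include Slc9a3r1 and Slc4a1ap. The families of inorganic ions and of nucleosides, vitamins and organic cations each have 5 higher and no lower genes in Peyer's patch over spleen of ZsGreen+ cells. Of all genes tested, 5.51% were higher and 7.17% lower in that comparison. The families of Golgi carriers have none there.

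Whether the sort difference depended on the tissue was tested as the Peyer's patch sort difference minus the spleen one. None of the 165 genes passed with edgeR (0% higher, against 0.0277% of all genes, and 0% lower, against 0.0694%), and 20 had an unadjusted p under 0.05 (12.1%, against 8.48% of all genes). By the study's criterion 11 were higher (6.67%, against 3.86%) and 4 lower (2.42%, against 2.93%). Slc16a6 came nearest, at -1.72 ± 0.30 (adjusted p = 0.0619), with sort differences of 0.15 in Peyer's patch and 1.86 in spleen. DESeq2 called it, at -1.76 (adjusted p = 0.00227). It also passed in edgeR without the spleen ZsGreen+ library of experiment 1 (adjusted p = 0.0343), without the spleen ZsGreen− library of experiment 1 (adjusted p = 0.0414) and with no filter on low counts (adjusted p = 0.0173). Slc14a1 followed with 1.36 ± 0.33 (adjusted p = 0.178), Slc4a7 with 0.84 ± 0.22 (adjusted p = 0.223) and Slc28a2b with 1.26 ± 0.34 (adjusted p = 0.226). Genes called in spleen and not in Peyer's patch are therefore not shown to differ between the tissues. For the neutral amino acid carrier Slc1a4 a call of 3.96 (adjusted p = 0.0368) appeared without the spleen ZsGreen− library of experiment 1, and with all libraries its value was 2.29 ± 1.46 (adjusted p = 0.772).

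Genes that work with the carriers were followed in 4 lists. In the list of the sodium pump, carrier chaperones and kinases, 14 genes were tested. Of these, 1 was higher and 2 were lower in spleen ZsGreen+ cells, beside 4.53% and 4.09% of all genes tested. Peyer's patch over spleen had 2 higher and 4 lower in ZsGreen+ cells, beside 5.51% and 7.17%. In ZsGreen− cells it had 1 higher and 2 lower, beside 1.82% and 3.68%. In spleen ZsGreen+ cells the chaperone of monocarboxylate transporters Emb rose, with 382 and 1612.6 CPM in ZsGreen+ cells and 162 and 613.5 CPM in ZsGreen− cells (1.32 ± 0.20, adjusted p = 0.00224). The pump subunit gene Atp1b1 fell there (-2.90 ± 0.28, adjusted p = 0.000215). Atp1b1 was higher in Peyer's patch among ZsGreen+ cells (2.66), where its relative Atp1b3, Emb and the kinase gene Sgk1 were lower (-0.91, -0.89 and -1.67). Among ZsGreen− cells Atp1b3 and Sgk1 were lower in Peyer's patch.

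Of 21 genes of the amino acid response and synthesis, the transcription factor gene Atf4 and the glutamine synthetase gene Glul were lower in Peyer's patch in both sorts. Atf4 had 151 and 167 CPM in Peyer's patch ZsGreen+ cells and 238 and 394 CPM in spleen ZsGreen+ cells (-0.95 ± 0.19, adjusted p = 0.00694), and -0.81 ± 0.19 among ZsGreen− cells (adjusted p = 0.03). Glul had -1.02 ± 0.18 (adjusted p = 0.00276) and -0.90 ± 0.18 (adjusted p = 0.013). The translation repressor gene Eif4ebp1 rose in spleen ZsGreen+ cells (0.87 ± 0.21, adjusted p = 0.0268). Of 22 genes of lysosomal nutrient sensing and mTORC1, Castor2, an arginine sensor relative, fell in spleen ZsGreen+ cells (-1.22 ± 0.32, adjusted p = 0.0359) and was higher in Peyer's patch among ZsGreen+ cells (1.38 ± 0.31, adjusted p = 0.0114). Of 13 genes of metal handling, the transferrin receptor gene Tfrc rose in spleen ZsGreen+ cells (0.59 ± 0.16, adjusted p = 0.039), and Steap3, a ferrireductase gene, was lower in Peyer's patch among ZsGreen+ cells, at 0.0562 and 0.150 CPM against 3.57 and 1.03 CPM in spleen (-4.31 ± 1.03, adjusted p = 0.0164). No gene of the 4 lists passed between the sorts of Peyer's patch, where 0.284% of all genes tested were higher and 0.153% lower. In the spleen sort comparison 4.53% of all genes tested were higher and 4.09% lower. For Peyer's patch over spleen the shares were 5.51% and 7.17% in ZsGreen+ cells and 1.82% and 3.68% in ZsGreen− cells. The list medians lay between -0.171 and 0.1095 in the 4 comparisons.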

How the data were processed

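Messenger RNA of 4 groups of sorted Tfh cells was sequenced in 8 libraries, 2 a group, 1 from each of 2 experiments. Libraries were made by poly A enrichment or with a non-directional ultra-low-input kit, per the labels' protocols, which do not say which library had which. The submitters' processing notes name STAR, Partek, DESeq2 and mm39, without versions. The raw tables deposited by the authors hold estimated counts (expected counts) per gene, of which 20.8% to 31.2% were not whole (tolerance 0.01). The authors' normalized tables give a signal, the same counts times 1 constant per library (0.765 to 1.58, relative deviation up to 9.2e-06).

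The counts were rounded, and the 16735 genes in both tables (18114 and 20397 genes) were used. Those in 1 table only held 0.0361% to 0.597% of a library. In edgeR 4.0.16 (R 4.3.3), 14418 genes were tested after filterByExpr (minimum count 10, total 15), which removed 2317, and all 165 Slc genes passed this filter. The quasi-likelihood model had 4 group means and an experiment term, which left 3 residual degrees of freedom, with TMM scaling (factors 0.656 to 1.24). Adjusted p-values are Benjamini-Hochberg over all genes tested, with a threshold of 0.05, and SE derive from the F statistic. The experiment number is a pairing given by the labels, and deviations from group means correlated across genes with r of 0.825 to 0.867 over 6 pairs of groups. The script was tested on simulated counts.

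Exon lengths, exon overlaps and shared 50-base transcript windows come from GENCODE M21 (GRCm38), matched by identifier, and promoter windows from RefSeq (GRCm38.p6). Gene coordinates are those of the deposited tables (mm39). The genes, the classes of cargo, the partner and marker lists and the rule for named genes were chosen with earlier results of these data known. Genes named were those past the threshold with the largest changes, the highest per length, those nearest the count threshold and a set of nutrient and ion carriers, while Slc1a4, Slc41a1, Slc46a3, Slc4a8, Slc5a3 and Slc50a1 were added after their values were seen. Alternatives were DESeq2 1.42.0, its size factors, limma 3.58.1 on the log2 of the deposited signal plus 1, no or a stricter filter, no experiment term, the study's fold criterion and leaving out each library. Shares of calls among genes with the same count sum (at least 400) were added after the results were seen. A few genes counted in the totals are not reported here by name.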

Additional observations from a re-analysis of the deposited data

How the results depend on the processing

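The experiment term decided the calls. With no replicate block, that is without pairing the libraries by experiment, the counts of Slc genes were 0 higher in Peyer's patch sorts, 0 higher and 0 lower in spleen sorts, and 0 higher and 0 lower in the tissue comparison of either sort, and none of the 57 named calls was kept. Of these 57, DESeq2 kept 54, its size factors 52, limma on the deposited signal 52, and either other filter 57. Over the fits without 1 library 322 of 456 were kept and 134 lost, and no named value reversed under any alternative. By the study's criterion the counts were 6 higher and 6 lower in Peyer's patch sorts, 19 lower in spleen sorts, 11 lower in Peyer's patch among ZsGreen+ cells, 11 lower among ZsGreen− cells, and 11 higher and 4 lower for the difference between tissues. DESeq2 gave 3 lower in Peyer's patch sorts and 1 lower for the difference between tissues, no filter gave 1 lower in each of these, and the size factors of DESeq2 gave 7 lower in spleen sorts.

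Without 1 library, the counts of higher and lower genes ranged from 0 to 1 and 0 to 1 in Peyer's patch sorts, 3 to 7 and 3 to 11 in spleen sorts, 10 to 23 and 3 to 9 in the tissue comparison of ZsGreen+ cells, 4 to 9 and 1 to 7 in that of ZsGreen− cells, and 0 to 1 and 0 to 1 for the difference between tissues. A lone library of a group was then assumed to vary like the others. The median log2 fold change of all genes moved by less than 0.1 under each scaling. With 2 libraries a group and 3 residual degrees of freedom, genes at a few CPM, such as Slc2a6 and Slc12a8, had the widest errors among the genes that passed.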
